A study of Mus musculus with 6 samples.

Results

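Transcripts of 9 genes that respond to bone morphogenetic protein (BMP) signaling, Id1, Id2, Id3, Id4, Smad6, Smad7, Bambi, Msx1 and Msx2, were followed in adult mouse aortic valves. They were taken by symbol from a table of 23107 genes, and all 9 were among the 15354 genes with enough counts to be tested. The valves came from outbred mice aged 4 months and gave 3 control and 3 mutant RNA-Seq libraries. The mutants carried caAcvr1, a Cre-activatable transgene for a constitutively active form of the BMP type I receptor AcvRI, together with Nfatc1Cre, a knock-in allele that expresses the Cre recombinase from the Nfatc1 locus. In this cross Cre acts in the endocardium, in valve interstitial cells and at the leaflet-wall junction, so that only part of the cells in a dissected valve can carry the active receptor. Controls are given as wild type in the labels, while the methods allow for animals with either allele alone or with neither. How many mice went into a library is not stated in the sources used here, and p-values measure the spread between these libraries.

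BMP ligands bind pairs of type I and type II receptors, which phosphorylate Smad1, Smad5 and Smad9. These proteins join Smad4, enter the nucleus and act on target genes. The Id genes are among the most direct of these targets, and their products hold back basic helix-loop-helix transcription factors by binding E proteins. Smad6, Smad7 and Bambi are induced by the pathway and dampen it, while Msx1 and Msx2 encode homeobox factors known from limb, tooth and endocardial cushion development. In heart valves BMP signaling drives formation of the cushions from which the leaflets arise, and in later life it has been tied to calcification.

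Upstream sequence of 6 of the 9 genes was matched by symbol in a table from RefSeq (GRCm38.p6), and Id1, Smad7 and Bambi were not analysed here. The 250 bases before the start site given by RefSeq are shown for Id2 and Id4, the members with a GGCGCC element, which is bound by BMP-activated Smads, for Id3, the most abundant member, and for Smad6, the member with the largest difference between the groups. Capitals mark GGCGCC and GTCT, a short Smad-binding sequence, each searched on both strands. The RefSeq start of Smad6 is also the end of its GENCODE span printed further on, while the windows of Id2, Id3 and Msx2 lie inside the GENCODE spans of these genes.
Id2, chr12:25096093-25096342, minus strand: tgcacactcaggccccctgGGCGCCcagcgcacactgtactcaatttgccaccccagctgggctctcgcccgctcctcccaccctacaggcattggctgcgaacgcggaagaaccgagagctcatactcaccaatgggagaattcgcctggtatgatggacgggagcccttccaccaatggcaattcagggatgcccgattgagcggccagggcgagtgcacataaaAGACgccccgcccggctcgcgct
Id4, chr13:48260866-48261115, plus strand: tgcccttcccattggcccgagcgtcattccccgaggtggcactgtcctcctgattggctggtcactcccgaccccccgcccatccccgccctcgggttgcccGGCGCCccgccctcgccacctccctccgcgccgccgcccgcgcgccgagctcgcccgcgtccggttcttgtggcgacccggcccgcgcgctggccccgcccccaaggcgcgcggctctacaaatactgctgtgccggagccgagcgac
Id3, chr4:136143572-136143821, plus strand: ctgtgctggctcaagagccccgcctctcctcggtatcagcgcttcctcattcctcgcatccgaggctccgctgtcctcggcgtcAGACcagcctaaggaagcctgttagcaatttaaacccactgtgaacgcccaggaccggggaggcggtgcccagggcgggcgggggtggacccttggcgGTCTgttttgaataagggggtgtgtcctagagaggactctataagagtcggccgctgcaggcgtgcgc
Smad6, chr9:64022060-64022309, minus strand: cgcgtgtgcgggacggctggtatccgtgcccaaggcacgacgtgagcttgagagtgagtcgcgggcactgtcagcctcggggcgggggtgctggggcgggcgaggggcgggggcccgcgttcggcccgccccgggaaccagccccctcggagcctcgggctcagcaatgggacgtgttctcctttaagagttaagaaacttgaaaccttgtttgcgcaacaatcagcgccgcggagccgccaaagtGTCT
The GGCGCC element began 231 bases before the start in Id2 and 148 bases before it in Id4. It was present in 2 of the 6 members matched and in 9.59% of 32851 upstream regions of this length. GTCT was present in 4 of the 6, Id2, Id3, Msx2 and Smad6, and in 82.9% of all regions. GGCGCC followed after any 5 bases by GTCT was found in 0 of the 6 and in 0.07% of all regions. The members' regions were rich in G and C, from 61.6% in Msx2 to 75.6% in Id4, against a median of 52.4% over all regions. These matches are letters in a window, and no binding was measured.

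Library totals ran from 32218345 to 55728852 fragments. Markers of valve interstitial cells were found in every library, 8 of 8 listed, with a summed level of 15064 to 16141 CPM in the controls and 13290 to 17177 CPM in the mutants. Endothelial markers, also 8 of 8, summed to 1520 to 2438 CPM in the controls and 1770 to 2081 CPM in the mutants. Neighbouring tissue was present in uneven amounts. The 8 cardiac muscle markers summed to 9692 CPM in control replicate 2 and to between 15711 and 35215 CPM in the other libraries, and the 6 smooth muscle markers to 13424 CPM in control replicate 2 and to between 2231 and 6081 CPM in the others. The 6 macrophage markers found, of 7 listed, summed to 671 to 778 CPM in the controls and 854 to 925 CPM in the mutants, so that every mutant lay above every control. Sex-linked transcripts also set libraries apart. Control replicate 1 and mutant replicate 1 had Xist at 54.5 and 59.1 CPM and Y-linked transcripts (Ddx3y, Eif2s3y, Kdm5d and Uty) at 0.672 and 0.560 CPM in sum. Control replicates 2 and 3 had Xist at 0.297 and 0.631 CPM and Y-linked transcripts at 181 and 183 CPM. Mutant replicates 2 and 3 held both, with Xist at 19.7 and 11.7 CPM and Y-linked transcripts at 138 and 171 CPM. The part of these differences in the results below was not tested beyond the fits named beside them.

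Between mutant and control valves, 0 of the 9 BMP target genes had an adjusted p under 0.05 in the quasi-likelihood F test of edgeR, in which 0% of all genes tested did. DESeq2 also called 0 of the 9, where it called 0.169% of genes. At an unadjusted p under 0.05 there was 1 member, Smad6, against 3.45% of all genes. The groups overlapped in all 9 members, and 8.87% of genes tested had groups that did not overlap. Every mutant lay above every control in 4.04% of genes and below in 4.83%, and in 0 members either way. Of the 9 log2 fold changes, 6 were above 0, as were 52.2% over all genes, and 3 below, with a median of 0.039 against 0.0097 over all genes tested. In 8 of the 9 the change was smaller than its standard error. The adjusted p from edgeR was 0.999 for each of them, and no gene in the table had a smaller one.

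**Figure D1:**
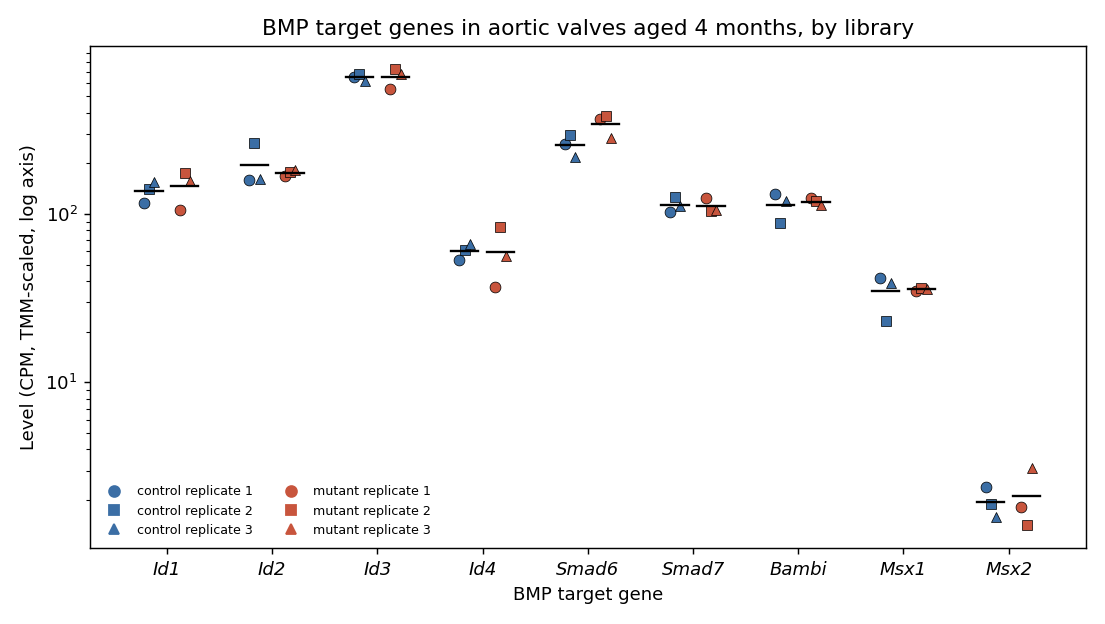
Level of each of the 9 BMP target genes in each library, in CPM scaled by TMM on a log axis. Points are libraries, with the replicate given by the shape, and horizontal bars are group means of 3; the mutant points overlap the control points in every gene.

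The 4 Id genes had overlapping groups, and the 95% interval of each held 0. Id1 (chromosome 2, 152736251 to 152737410, GRCm38) was read at 115, 140 and 154 CPM in control replicates 1, 2 and 3, and at 105, 175 and 158 CPM in the corresponding mutant replicates. The lowest and the highest library were both mutants, so that the spread within the mutants covered that of the controls. The log2 fold change, mutant against control, of Id1 was 0.10 with a standard error (SE) of 0.21, and had a 95% interval from -0.39 to 0.59. In bulk tissue such as this, fewer cells of a type and less RNA per cell cannot be told apart.

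Id3 (chromosome 4, 136143497 to 136145755), the most abundant of the 9, was read at 647, 681 and 613 CPM in the controls and at 549, 728 and 682 CPM in the mutants, from counts of 21711 to 34663 per library. The controls lay within 1.11-fold of each other and the mutants within 1.33-fold. The fold change of Id3 was 1.01, with a 95% interval from 0.774 to 1.32.

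Id2 (chromosome 12, 25093799 to 25097140) was read at 159, 265 and 161 CPM in the controls and at 167, 176 and 183 CPM in the mutants. Control replicate 2 stood above the other 5, which lay between 159 and 183 CPM. It also had the highest smooth muscle, endothelial and adipocyte marker sums and the lowest cardiac muscle sum. The part of these tissues in Id2 was not tested. The log2 fold change of Id2 was -0.15 (SE 0.21) with all libraries and 0.14 without control replicate 2. Its direction therefore rested on that library.

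Id4 (chromosome 13, 48261228 to 48266026) was read at 53.3, 60.8 and 66.2 CPM in the controls and at 36.9, 84.2 and 56.6 CPM in the mutants. Mutant replicates 1 and 2 were the lowest and the highest of all 6, at 2.28-fold from each other, where the controls lay within 1.24-fold. The log2 fold change of Id4 was -0.021 (SE 0.28), and leaving out mutant replicate 2 gave -0.36, where leaving out mutant replicate 1 gave 0.23. Antisense and intergenic RNA genes overlap 2.1% and 4.4% of its exon bases on the opposite strand, and the counting is not stated to use strand, so that reads from them cannot be told apart from those of Id4.

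Of the inhibitory Smads, Smad6 was the only member with an unadjusted p under 0.05, while Smad7 varied least of the 9. Smad6 (chromosome 9, 63953076 to 64022059) encodes an inhibitor that acts mainly on BMP signaling. It was read at 259, 293 and 218 CPM in the controls and at 366, 383 and 283 CPM in the mutants. Mutant replicates 1 and 2 lay above every control, and mutant replicate 3 lay below control replicate 2. Its fold change was 1.34, with a 95% interval from 1.01 to 1.77 before any adjustment for the number of genes (unadjusted p = 0.0434 and adjusted p = 0.999, edgeR). The log2 fold change of Smad6 stayed between 0.32 and 0.54 in the 6 fits that each left out 1 library. The unadjusted p from edgeR was above 0.05 in 4 of them, at 0.0882 without control replicate 1, 0.155 without control replicate 3, 0.109 without mutant replicate 1 and 0.132 without mutant replicate 2, and under 0.05 in the other 2, at 0.0204 without control replicate 2 and 0.0202 without mutant replicate 3. On all libraries the unadjusted p was 0.0266 in DESeq2, 0.0506 in limma-voom and 0.0261 in limma-voom with sample quality weights. A term for the libraries without Y-linked transcripts, added once the data had been seen, left the log2 fold change at 0.42 (unadjusted p = 0.0525, edgeR). Without those libraries it was 0.37 (unadjusted p = 0.19, edgeR). Mutant replicates 2 and 3 held Xist at 19.7 and 11.7 CPM, against 0.297 and 0.631 CPM in control replicates 2 and 3. Neither fit accounts for that difference in Xist. The macrophage markers, higher in every mutant than in every control, were not tested for their part in the difference in Smad6.

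Smad7, on chromosome 18, encodes an inhibitor shared by the BMP and TGF-beta branches. It was read at 103, 126 and 112 CPM in the controls and at 124, 104 and 105 CPM in the mutants. All 6 libraries lay within 1.23-fold of each other, and the gene's biological coefficient of variation, 0.139, was at the 16th percentile of all genes tested. The log2 fold change of Smad7 was -0.031 (SE 0.12), with a 95% interval for the fold change from 0.803 to 1.19, the narrowest among the 9.

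Bambi, also on chromosome 18, encodes a pseudoreceptor that resembles a type I receptor but lacks the kinase. It was read at 132, 88.3 and 119 CPM in the controls and at 124, 119 and 112 CPM in the mutants. The 3 mutants lay within 1.10-fold of each other and inside the range of the controls, whose lowest library was replicate 2. A pseudogene named Bambi-ps1 could share reads with it. The fold change of Bambi had a 95% interval from 0.810 to 1.35.

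Msx1 and Msx2 differed widely in level, and neither had groups that separated. Msx1 (chromosome 5, 37820485 to 37824583) was read at 41.8, 23.3 and 39.2 CPM in the controls and at 34.8, 36.3 and 36.01 CPM in the mutants. The mutants lay within 1.04-fold of each other, the tightest group of any member, while the controls spread over 1.79-fold because of replicate 2. Without that library all 3 mutants lay below both remaining controls. The log2 fold change of Msx1 went from 0.039 to -0.18 (unadjusted p = 0.131, edgeR, without that library). The library was picked for its low value, and the share of all genes that separate without it was not taken. Msx2 (chromosome 13, 53466884 to 53473074) was read at 2.41, 1.90 and 1.59 CPM in the controls and at 1.83, 1.42 and 3.11 CPM in the mutants, from 56 to 129 counts per library. Its biological coefficient of variation, 0.360, was the highest of the 9, and its interval was the widest, from 0.572 to 2.02 for the fold change.

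**Figure D2:**
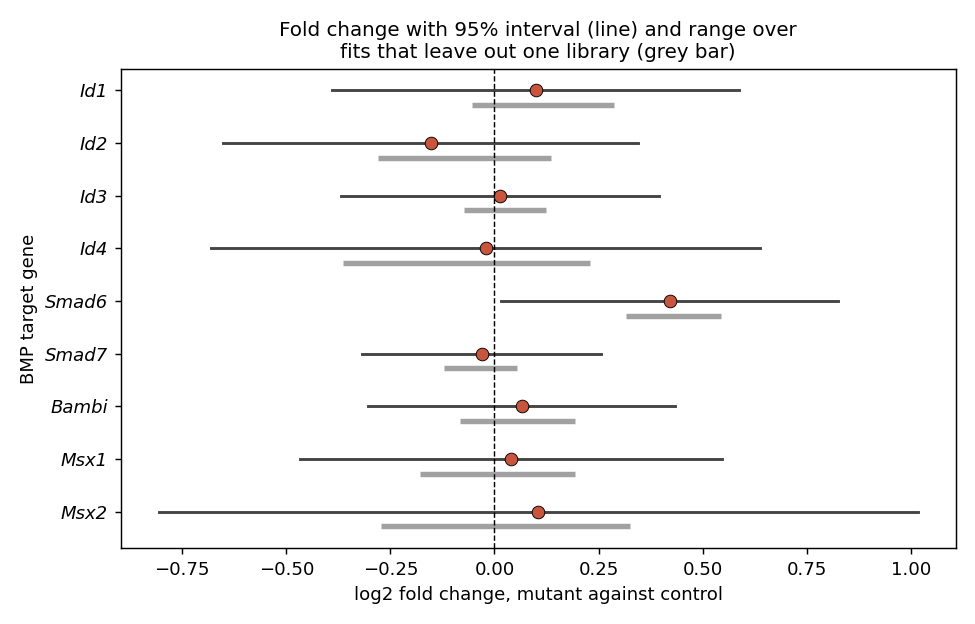
log2 fold change of each BMP target gene, mutant against control, from the edgeR fit. Points are estimates, dark lines their 95% intervals before adjustment and grey bars the range over the 6 fits that each left out 1 library; the interval lies above 0 for Smad6 and holds 0 for the other 8.

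Levels were compared between genes per length, as CPM per kilobase of exon. Over all 6 libraries Id3 was highest, at 363 ± 34.96 CPM per kilobase (SD, n = 6). Id1 followed at 122 ± 23.0, Smad6 at 93.7 ± 19.7 and Id2 at 76.0 ± 16.5 CPM per kilobase (SD, n = 6 each). Id3 lay between 2.58 and 3.63 times above Id1 within each library. The ranges of Id1, Smad6 and Id2 overlapped from each to the next, so that their order is not fixed beyond the spread. A gap followed, with Id2 at least 2.49 times above Smad7 in every library. Smad7, Bambi, Id4 and Msx1, at 24.8, 22.8, 15.5 and 11.4 CPM per kilobase, again overlapped from each to the next. Id4 and Msx1 changed places when the longest transcript was taken as the length. Msx2 was last at 0.623 ± 0.190 CPM per kilobase (SD, n = 6), between 12.3 and 27.1 times below Msx1.

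In the control valves Id3 ranked 104th of 13851 genes tested that could be given a length, in the top 0.751%. Id1 was in the top 2.89%, and Smad6 and Id2 were in the top 4.48% and 4.49%. Smad7 and Bambi were in the top 14.9% and 16.8%, Id4 in the top 23.1% and Msx1 in the top 29.8%, and Msx2 lay below at 82.6%. Of the transcript of the 4 Id genes per kilobase, Id3 made up between 60.8% and 66.9% in each library, Id1 between 18.4% and 23.8%, Id2 between 11.1% and 17.4% and Id4 between 2.02% and 3.36%.

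Ratios within a library do not depend on the scaling between libraries. The summed level of the 4 Id genes per kilobase was 15.3, 21.3 and 15.1 times that of the E protein genes Tcf3, Tcf4 and Tcf12 in control replicates 1, 2 and 3, and 16.4, 17.9 and 19.5 times in the corresponding mutant replicates. The control range held all 3 mutants. The ratio of the inhibitory Smads, Smad6 and Smad7, to the Smads that carry the BMP signal, Smad1, Smad5 and Smad9, was 4.21, 4.30 and 3.62 in the controls and 6.67, 5.78 and 5.38 in the mutants. Here every mutant lay above every control, as it also did with the longest transcript as the length, which lowered the ratios. Within the numerator, Smad6 was 3.55, 3.29 and 2.76 times Smad7 in the controls and 4.15, 5.20 and 3.80 times in the mutants. Within the denominator, each mutant had less Smad1 than any control, while the groups overlapped in Smad5 and Smad9, whose log2 fold changes were above 0. Groups overlapped in the other ratios made. Id3 over Id1 averaged 3.12 in the controls and 2.95 in the mutants, and Msx1 over Msx2 averaged 19.2 and 19.8. Both ratios that separated hold Smad6, the member with the largest difference, so they are no separate finding. These ratios were made from the members and are given with no test and no background share.

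**Figure D3:**
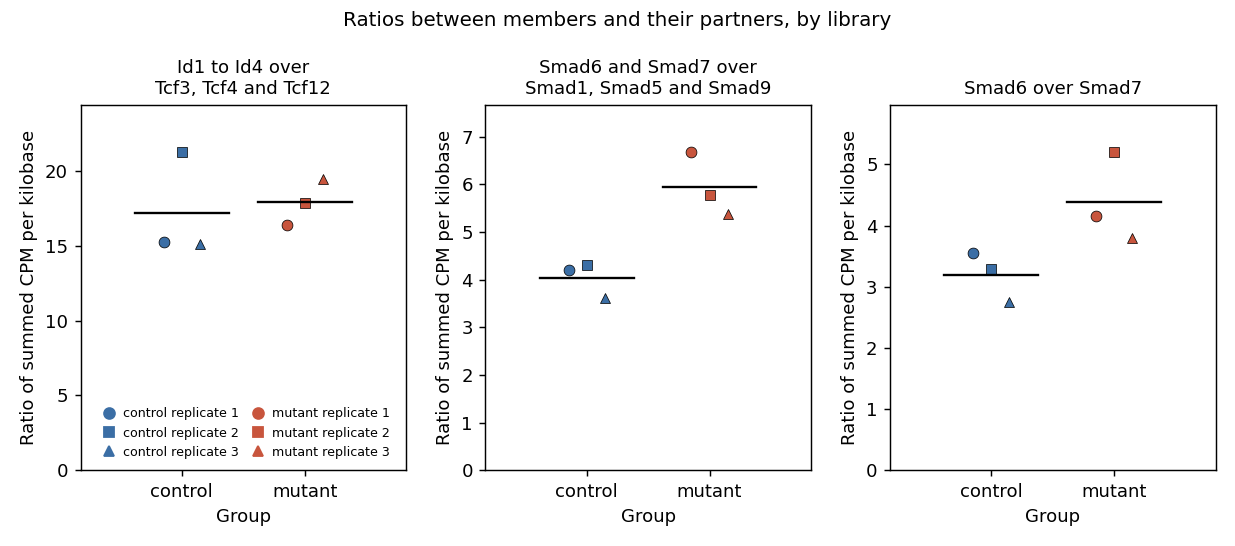
Ratios of summed CPM per kilobase in each library, for the Id genes over the E proteins, the inhibitory over the signal-carrying Smads, and Smad6 over Smad7. Points are libraries and bars group means of 3; the groups overlap in the left panel, and in the other panels every mutant lies above every control.

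No library was the highest or the lowest in all 9 genes. Mutant replicate 1 had the lowest level of Id1, Id3 and Id4 among the 6 libraries, and mutant replicate 2 had the highest level of these 3 and of Smad6. Control replicate 2 was highest in Id2 and Smad7 and lowest in Bambi and Msx1. Of the 36 pairs of members, 15 had a positive and 21 a negative Pearson r of log2 CPM over the 6 libraries. By an exact permutation test over the 720 pairings, two-sided, 6 pairs had an unadjusted p under 0.05 and 0 an adjusted one, and the smallest adjusted p was 0.175. By the same test on deviations from the group mean, 0 pairs had an adjusted p under 0.05. The smallest was 0.05, for Id1 with Id4 and for Id2 with Bambi. The values that follow are for log2 CPM unless stated. Id1 and Id4 had r = 0.89 and Spearman's rho = 0.83 (n = 6, exact permutation p = 0.00972 and 0.0583, adjusted p = 0.175 and 0.42), and r was 0.74 without the 2 libraries farthest from the median of Id1. Id2 and Bambi had r = -0.97 and rho = -0.83 (n = 6, exact permutation p = 0.00833 and 0.0583, adjusted p = 0.175 and 0.42), and r was -0.70 without 2 libraries. Bambi and Msx1 had r = 0.95 and rho = 0.60 (n = 6, exact permutation p = 0.0278 and 0.242, adjusted p = 0.25 and 0.892). On log2 CPM that relation rested on the libraries farthest from the median, one of them control replicate 2, since r was -0.19 without them. On deviations from the group mean r was 0.95, and 0.49 without 2 libraries.

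**Figure D4:**
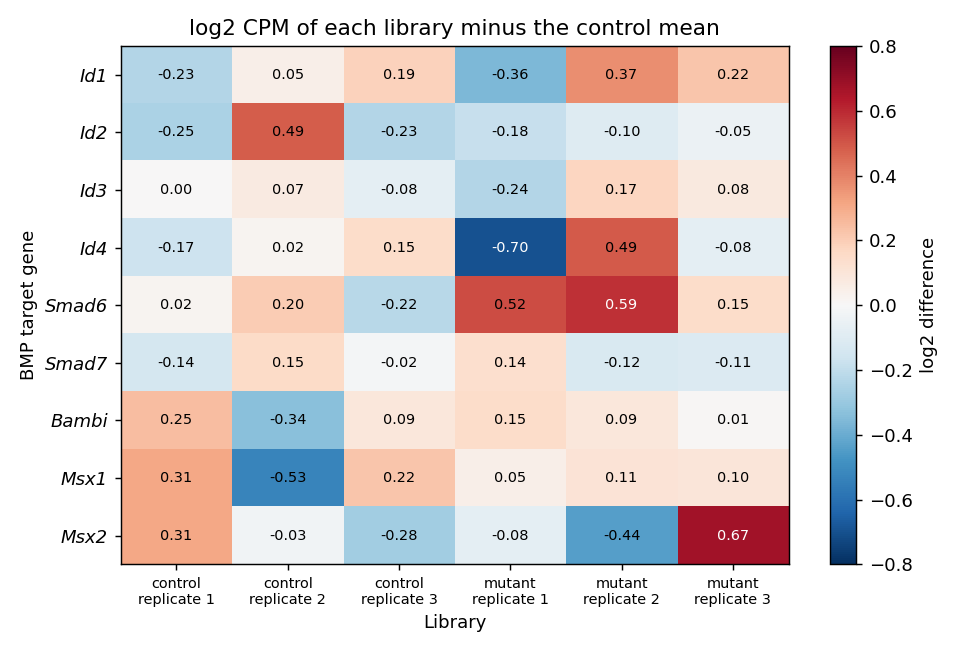
log2 CPM of each BMP target gene in each library minus the mean of the 3 controls, with the value printed in each cell and red above 0. Id1, Id3 and Id4 are lowest in mutant replicate 1, Bambi and Msx1 are lowest in control replicate 2, and Smad6 is above the control mean in all 3 mutants.

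The levels of 3 members separated the libraries without Y-linked transcripts from the others, a share read here against all genes. Id1 lay at 105 and 115 CPM in the 2 libraries without Y-linked transcripts, 1 of each group, and between 140 and 175 CPM in the other 4. Id4 was lower in these 2 libraries as well, at 36.9 and 53.3 CPM against 56.6 to 84.2 CPM, and Bambi was higher, at 124 and 132 CPM against 88.3 to 119 CPM. The same 2 libraries also had the highest cardiac muscle and melanocyte marker sums, and the part of these tissues was not tested. Over all genes tested, 10.4% were lower and 12.5% higher in both of these libraries than in every other, which is the background for the 2 lower and the 1 higher of 9 members. With a term for these libraries, chosen after seeing the data, the log2 fold change of Id1 between the groups was 0.077 and its standard error went from 0.21 to 0.11. Without these libraries 0 of the 9 members had an adjusted p under 0.05 in edgeR, and the log2 fold change of Id1 was 0.17 (SE 0.15). Neither fit removes the difference in Xist between the remaining mutants and controls.

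A list of 61 other genes of the BMP pathway also held the E protein genes Tcf3, Tcf4 and Tcf12, all 3 with log2 fold changes below 0. Of the 61, 59 could be tested and 0 had an adjusted p under 0.05 in edgeR. At an unadjusted p under 0.05 there were 3 higher and 3 lower. Over all genes the shares were 1.59% higher and 1.86% lower. Of the 59, 22 log2 fold changes were above 0 and 37 below, with a median of -0.080, which leaving out control replicate 2 turned to 0.0035, control replicate 1 or mutant replicate 2 lowered to -0.15, and control replicate 3 or mutant replicate 1 raised to -0.037 or -0.045. The groups did not overlap in 5 of the 59, with every mutant above every control in 3 and below in 2, against 8.87% of all genes. Among the 4 Smads that carry the signal, Smad4 included, Smad1 was read at 96.9, 117 and 104 CPM in the controls and at 72.1, 88.6 and 76.4 CPM in the mutants. Its log2 fold change came to -0.43 (SE 0.12, unadjusted p = 0.00961, edgeR). Smad4, the common partner, also had groups that did not overlap, mutants below controls, at 141.5 ± 17.6 and 121 ± 6.76 CPM (SD, n = 3 each). Its log2 fold change was -0.22 (SE 0.12, unadjusted p = 0.102, edgeR), or -0.11 when control replicate 2 was left out and -0.28 when control replicate 3 was. Smad5 and Smad9 had log2 fold changes of 0.070 (SE 0.11) and 0.23 (SE 0.26), with groups that overlapped. The receptors, 10 of 10 tested, held 0 genes at an unadjusted p under 0.05 in edgeR. Eng, an endothelial co-receptor and the most abundant of them, had a log2 fold change of 0.20 (SE 0.19), with values of 0.10 to 0.32 when 1 library was left out, the lowest without control replicate 1 and the highest without mutant replicate 3. Leaving out both libraries that lack Y-linked transcripts gave 0.024. Acvr1 itself, in which reads of the transgene and the native gene are not told apart, had one of -0.11 (SE 0.14), which moved to -0.0042 without control replicate 3 and to -0.22 without control replicate 1. Bmpr1b had one of -1.06 (SE 0.60), or -0.20 when control replicate 2 was left out and -1.48 when mutant replicate 2 was.

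The ligands, 10 tested of 11, had a median log2 fold change of -0.55, against 0.0097 over all genes tested. Leaving out 1 library moved this median to -0.16 (control replicate 2), to -0.19 (mutant replicate 3) and to -0.78 (mutant replicate 2). Bmp6, the most abundant of them, was read at 89.6, 217 and 148 CPM in the controls and at 90.9, 85.8 and 57.4 CPM in the mutants (unadjusted p = 0.0225, edgeR). The log2 fold change of Bmp6, -0.96 (SE 0.33), became -0.60 when control replicate 2 was left out and -1.23 when control replicate 1 was. Gdf6, named after its values were seen, was read at 14.6 CPM in control replicate 2 and between 0.753 and 2.65 CPM in the other 5 libraries. Its log2 fold change of -2.40 became -0.83 without that library and -2.86 without control replicate 1. Inhbb, which encodes an activin subunit, was read at 49.95, 45.2 and 52.9 CPM in the controls and at 56.5, 110.6 and 80.0 CPM in the mutants. Every mutant lay above every control. The log2 fold change of Inhbb was 0.74 (SE 0.23, unadjusted p = 0.0155, edgeR), 0.47 without mutant replicate 2 and 0.95 without mutant replicate 1.

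Of the 12 secreted modulators, 11 were tested. Fst, which encodes the activin antagonist follistatin, had a log2 fold change of 0.84 (SE 0.34, unadjusted p = 0.0431, edgeR). That log2 fold change was 0.47 without mutant replicate 1, 1.10 without mutant replicate 3 and 0.25 without the libraries that lack Y-linked transcripts. Fstl1, the most abundant, had one of -0.058 (SE 0.21). Of the 7 intracellular regulators, Smurf1, a ubiquitin ligase that works with inhibitory Smads, had a log2 fold change of -0.20 (SE 0.17). That of Smurf1 was -0.0021 without control replicate 2 and -0.33 without control replicate 1. Fkbp1a, which holds type I receptors inactive, had a log2 fold change of 0.041 (SE 0.14). Tob1, named after its values were seen, was read at 101.5, 97.5 and 102.1 CPM in the controls and at 111, 102.2 and 109.8 CPM in the mutants. Its groups were set apart by the smallest of margins, and its log2 fold change was 0.10 (SE 0.085, unadjusted p = 0.269, edgeR). The E protein gene Tcf4 had a log2 fold change of -0.11 (SE 0.13), which moved to -0.18 when mutant replicate 2 was left out and to -0.026 when control replicate 3 was.

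Among 14 other BMP-responsive genes, all tested, Tbx20 had the smallest unadjusted p of the pathway. Tbx20, a T-box factor of the heart and its valves, was read at 203, 131 and 213 CPM in the controls and at 316, 307 and 297 CPM in the mutants. Every mutant lay above every control, and the log2 fold change was 0.75 (SE 0.19, unadjusted p = 0.00595 and adjusted p = 0.999, edgeR), from 0.56 to 0.88 in the fits without 1 library. Gata4, the most abundant of this list, had a log2 fold change of 0.37 (SE 0.18, unadjusted p = 0.0822, edgeR) and groups that overlapped. Both genes are also expressed in cardiac muscle. The summed cardiac muscle markers and Tbx20 were both lowest in control replicate 2 and both highest in mutant replicate 1, while mutant replicate 2 had the second-lowest sum and Tbx20 at 307 CPM. The part of cardiac muscle in these values was not tested. The median of this list was -0.20, against 0.039 in the 9 BMP target genes and 0.0097 over all genes. It moved to -0.11 without control replicate 2, to -0.033 without mutant replicate 1 and to -0.28 without mutant replicate 3. These medians are no test of a list.

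**Figure D5:**
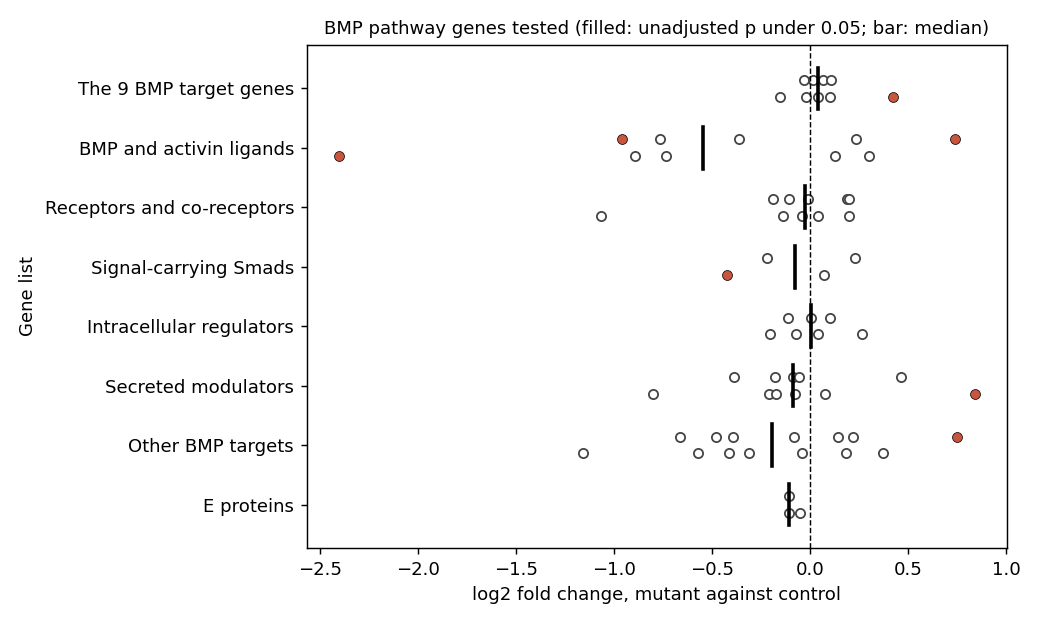
log2 fold changes, mutant against control, of the 9 BMP target genes and of the 59 other pathway genes tested, by list. Circles are genes, filled where the unadjusted edgeR p is under 0.05, and bars are list medians; the 9 targets lie between -0.15 and 0.42, and the ligands spread from -2.40 to 0.74.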

How the data were processed

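Aortic valve RNA was measured in 3 control and 3 mutant libraries, grouped by their titles. The labels list TopHat2 2.0.13, Bowtie2 2.2.1, Cuffdiff 2.1.1 and mm10. The authors deposited estimated counts per gene from Cuffdiff, with no scaling for depth. Between 1.66% and 1.87% of values per library were not whole and were rounded. Library totals ran from 32218345 to 55728852, and 3 counts, the upper limit for a gene at 0 from counting error alone, came to 0.056 to 0.0942 CPM. Genes reaching 10 counts in 3 or more libraries were tested with edgeR 4.0.16 in R 4.3.3 (TMM, quasi-likelihood F test, two-sided, no covariate, Benjamini-Hochberg over all genes, threshold 0.05). Each SE was the fold change divided by the root of F, and the common biological coefficient of variation was 0.278. Log2 CPM used a prior count of 2. Lengths and positions came from GENCODE M21 (GRCm38), which held 89.7% of the symbols. Cuffdiff was not run, since it needs aligned reads.

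The members, gene lists and tests were chosen with earlier results of these data known. By the rule, each pathway list names its gene with the smallest p and its most abundant gene. Alternatives were DESeq2 1.42.0, other normalizations and filters, limma-voom (limma 3.58.1), the replicate block, leaving out each library and, added after seeing the data, 2 fits on Y-linked transcripts and the medians of the lists without 1 library. On simulated data for this comparison, with 200 of 15192 genes changed, edgeR recovered 43% of changes of 1 and 91% of changes of 2 on the log2 scale. Smaller changes, such as the 0.42 of Smad6, were not simulated, so their recovery is not known.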

Additional observations from a re-analysis of the deposited data

How the results depend on the processing

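The count of BMP target genes with an adjusted p under 0.05 was 0 under every alternative run, as was that of the other pathway genes. Over all genes tested DESeq2 called 26 and the other alternatives 0. Whether the replicate numbers pair the libraries cannot be decided from so few correlations. The deviations of same-numbered libraries correlated at 0.289, 0.0822 and 0.0313. Mutant replicates 1 and 2 each correlated best with the control of the same number, while mutant replicate 3 correlated best with control replicate 2, at 0.200. With the replicate block 0 members and 0 genes in all were called and no direction changed, and Smad6 had an unadjusted p of 0.0071 in edgeR. The log2 fold changes of the members kept their direction in 85 of 89 refits on other settings and in 38 of 54 refits without 1 library. The exceptions on other settings were, with sample quality weights in limma-voom, Id2 at 0.055, Bambi at -0.022 and Msx1 at -0.069 (and Fstl1, no member, at 0.067), and, without the libraries that lack Y-linked transcripts, Id4 at 0.14. The cause was not tested. Without 1 library at a time the ranges were -0.053 to 0.29 for Id1, -0.28 to 0.14 for Id2, -0.072 to 0.12 for Id3, -0.36 to 0.23 for Id4, -0.12 to 0.053 for Smad7, -0.082 to 0.19 for Bambi, -0.18 to 0.19 for Msx1, -0.27 to 0.33 for Msx2, -0.029 to 0.090 for Fkbp1a and -0.16 to 0.099 for Fstl1. The median of the 9 ran from 0.011 to 0.12, the latter without mutant replicate 1, and was 0.15 without the libraries that lack Y-linked transcripts. With the longest transcript as the length, the ratio of Id genes to E proteins averaged 11.4 in the controls and 11.9 in the mutants, and that of inhibitory to signal-carrying Smads 2.95 and 4.49. Msx2, with 56 to 129 counts per library, had the fewest counts of the 9.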

Other observations

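The genes whose log2 CPM followed a member most closely over the 6 libraries were Tmem140 (r = 0.999) and Paip2b (r = 0.99) for Smad6, and 2610524H06Rik (r = 0.997) and Slc35b1 (r = 0.992) for Id1. Id3 was followed by Mtdh (r = 0.988) and Sox8 (r = 0.985), and Id2 by Tax1bp1 (r = 0.992) and Hoxb2 (r = 0.988). These are descriptions over 6 libraries, picked as the highest of 15354 genes. An r above 0.95 was reached by 15 genes for Smad6, 43 each for Id1 and Id3, 90 for Id2 and 169 for Bambi.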
